A study of Cicer arietinum with 12 samples.

Results

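The chickpea protease inhibitor genes kpi1 (LOC101496724) and tpi3 (LOC101503302) were followed across 12 leaf RNA-seq libraries of 2 genotypes. The 2 genes, of 27234 features counted, were chosen by their identifiers, from a proposal made with expression values of these same libraries in view. It is not recorded which contrast led to the choice, so the levels and differences of both genes are given as a description, with no test. The genotype ICC283 is called drought sensitive in the labels and ICC8261 drought tolerant. Each was grown in glasshouse pots with soil held at 80% of field capacity (well-watered) or at 20% (drought), and leaves were taken once, at a stage that the labels name by the shoot apical meristem. The labels give 3 libraries to each of the 4 groups. They do not say whether each library is 1 pot, so the spread between libraries may be in part technical.

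Kunitz-type inhibitors are small plant proteins that block serine proteases such as trypsin by binding tightly in the active site. In legumes they are abundant in seeds, where they protect stored protein, and they are also made in leaves, where they are best known as a defence against chewing insects that is raised by wounding and jasmonate. In other plants, oilseed rape among them, a Kunitz-family protein also accumulates in leaves short of water. The symbol kpi1 stands for a Kunitz proteinase inhibitor, for which the name table also lists tpi2, and the symbol tpi3 names a trypsin inhibitor. The name table gives no protein description for either gene.

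Each library held 8910704 to 12192098 reads on genes, and 20477 to 22105 genes were seen in it. For 4 of the 12 libraries the deposited sources disagree on the treatment. Each column of normalized counts in the authors' deposited tables equalled exactly 1 count file, and in 4 cases that file was labelled with the opposite condition. In ICC283 the count files of well-watered 3 and drought 3 are exchanged in the tables. In ICC8261 the count file of well-watered 1 is drought 2 in the tables, and that of drought 2 is well-watered 1. The genotype is the same in both sources for all 12. Principal components were taken over the 17617 genes with enough reads across the 12 libraries. On the first principal component (53.3% of the variance) the agreed drought libraries lay above the agreed well-watered ones in each genotype. They lay at 88.3 and 106.4 against -39.4 and -7.9 in ICC283 and at -9.8 and 25.9 against -69.4 and -61.1 in ICC8261. The count files of ICC283 well-watered 3 and drought 3 lay at 52.3 and -56.5 there, and those of ICC8261 well-watered 1 and drought 2 at 34.2 and -63.1. On this component all 4 thus lay on the side of the treatment that the tables give them, which is a measured position and was not used to assign a treatment. Comparisons between treatments use the 8 agreed libraries, 2 per group, and are repeated with each source's labels on all 12. Comparisons of the genotypes across treatments need no such decision. Of the photosynthesis, seed and nodule marker symbols chosen for a tissue check, 1 matched a feature, the seed storage gene LEG (LOC101488953), which was at 0 to 0.201 CPM (reads scaled to library size). The plastid genes petB and petD, taken after the features had been seen, stood at 10379 to 19524 and 9874 to 23796 CPM in the 12 libraries.

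The gene kpi1 was higher in ICC8261 than in ICC283 in every library. Levels are CPM after scaling of library sizes by the trimmed mean of M values (TMM), and they are not corrected for gene length, so kpi1 and tpi3 are not compared with each other in level. In the agreed ICC283 libraries kpi1 stood at 1.95 and 3.26 CPM well-watered and at 1.61 and 1.86 CPM under drought, from 19, 28, 16 and 21 reads. In the agreed ICC8261 libraries it stood at 11.6 and 13.2 CPM well-watered and at 26.9 and 26.4 CPM under drought, from 153, 167, 255 and 289 reads. The ICC8261 libraries are all high and the ICC283 libraries all low, with no overlap. Of the ICC283 libraries of conflicting treatment, that filed as well-watered 3 held 2.59 CPM (24 reads) and that filed as drought 3 held 10.8 CPM (119 reads). Of those of ICC8261, the library filed as well-watered 1 held 21.3 CPM (256 reads) and that filed as drought 2 held 16.8 CPM (184 reads). With all 12 libraries the gap between the genotypes narrows to that between 10.8 and 11.6 CPM, and it is the ICC283 library filed as drought 3 that stands next to ICC8261. Its 95% Poisson interval was 8.92 to 12.9 CPM and overlapped that of the lowest ICC8261 library, 9.82 to 13.6 CPM. Of the 18750 genes tested, 1.78% had all 6 ICC8261 libraries above all 6 ICC283 libraries. The kpi1 median was 2.27 CPM over the 6 ICC283 libraries and 19.1 CPM over the 6 ICC8261 libraries.

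The gene tpi3 was also higher in ICC8261, from far fewer reads and with 1 ICC283 library among those of ICC8261. In the agreed ICC283 libraries tpi3 stood at 0.308 and 0.582 CPM well-watered and at 0.401 and 0.530 CPM under drought, from 3, 5, 4 and 6 reads. In the agreed ICC8261 libraries it stood at 4.69 and 3.32 CPM well-watered and at 2.00 and 6.76 CPM under drought, from 62, 42, 19 and 74 reads. The ICC8261 drought libraries thus lie on either side of the well-watered pair. The ICC283 libraries of conflicting treatment held 1.19 CPM (11 reads, filed as well-watered 3) and 3.62 CPM (40 reads, filed as drought 3). Those of ICC8261 held 1.91 CPM (23 reads, filed as well-watered 1) and 1.37 CPM (15 reads, filed as drought 2). The ICC283 library filed as drought 3 was above 4 of the 6 ICC8261 libraries. Without it the genotypes did not overlap, by the narrow margin of 1.19 against 1.37 CPM, a separation that 3.34% of the genes tested showed over the same 11 libraries. At 3 reads in the lowest library the 95% Poisson interval ran from 0.0634 to 0.899 CPM, so ICC283 levels are known only to within severalfold from counting alone. In bulk leaf RNA, fewer cells with the transcript and less transcript per cell cannot be told apart, for both genes.

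**Figure D1:**
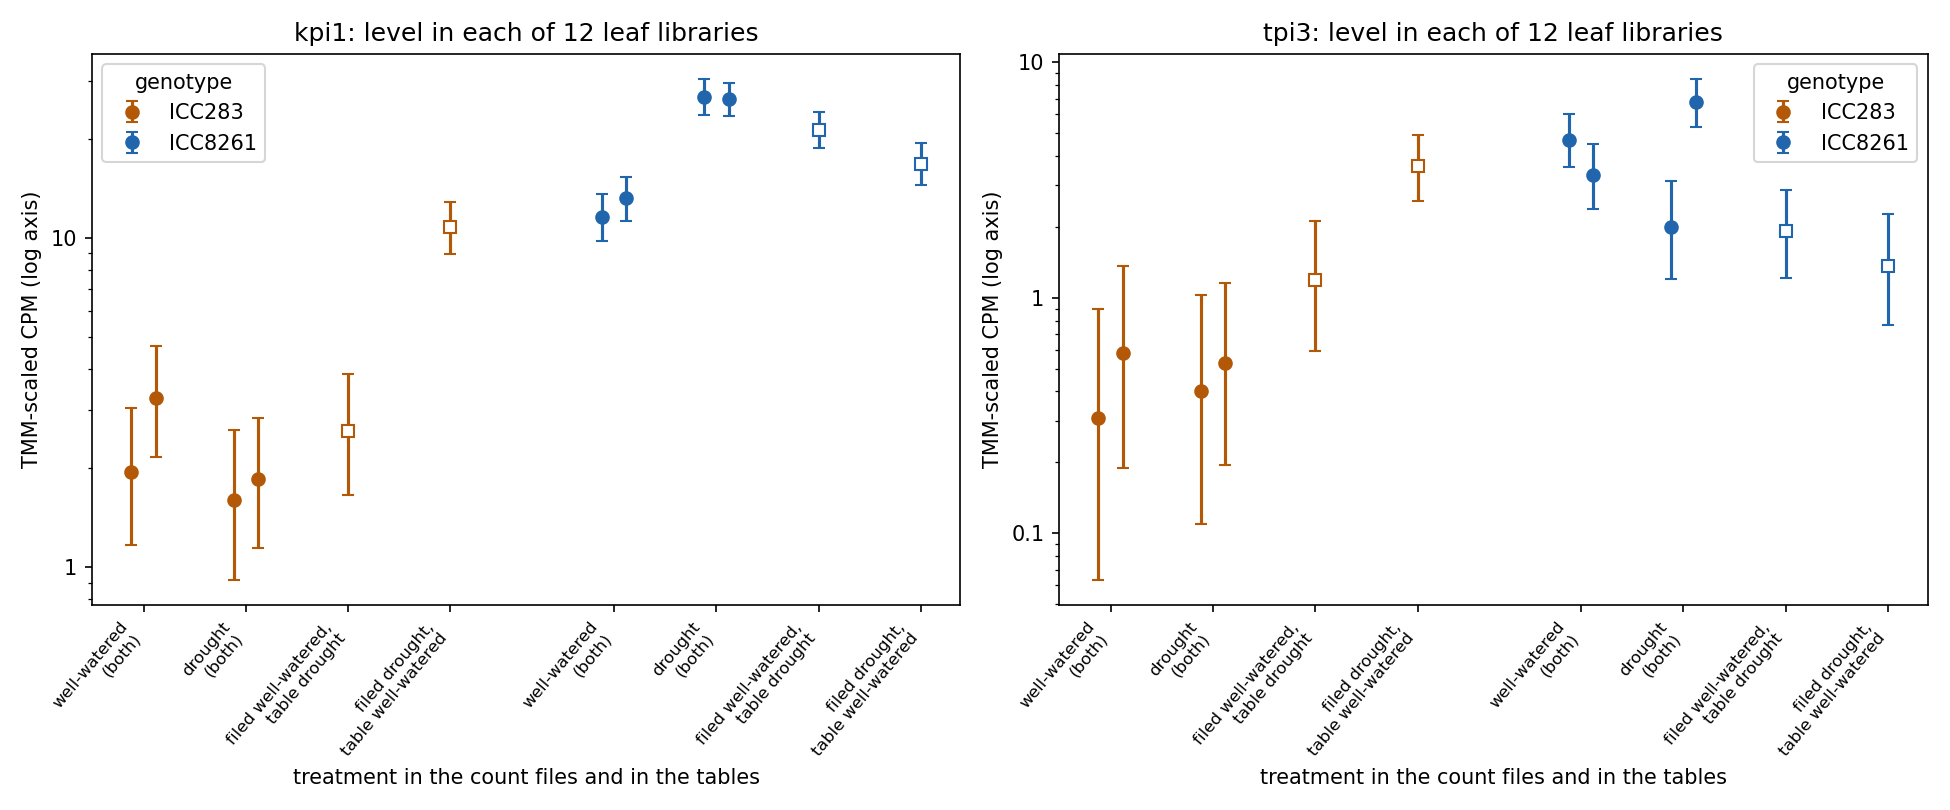
Level of kpi1 (left) and tpi3 (right) in each of the 12 libraries, in TMM-scaled CPM on a log axis. Filled circles are the 8 libraries on whose treatment the deposited sources agree, open squares the 4 with conflicting treatment, and bars are 95% Poisson intervals that cover counting error only. For kpi1 the ICC283 points run from 1.61 to 10.8 CPM and the ICC8261 points from 11.6 to 26.9 CPM, while for tpi3 the ICC283 square at 3.62 CPM lies among the ICC8261 points.

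Among all features, kpi1 was in the middle of the range of levels in ICC283 and in the upper part in ICC8261. Its mean was above that of 48.5% of the 27234 features in ICC283 and above that of 76.2% in ICC8261. For tpi3 the shares were 36.6% and 46.6%, so that it ranked below the middle in both genotypes.

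Ordered by the means of the agreed libraries, kpi1 rose from ICC283 drought, at 1.73 ± 0.177 CPM (SD, n = 2), through ICC283 well-watered, at 2.60 ± 0.928 CPM (SD, n = 2), to ICC8261. There it was 12.4 ± 1.14 CPM well-watered (SD, n = 2) and 26.6 ± 0.334 CPM under drought (SD, n = 2). The 2 ICC283 groups lie within 1 SD of the well-watered group of each other, and the steps to and within ICC8261 are larger than the spread of the pairs. For tpi3 the means were 0.445 ± 0.194 CPM in ICC283 well-watered and 0.466 ± 0.0912 CPM in ICC283 drought (SD, n = 2 each). They were 4.00 ± 0.973 CPM in ICC8261 well-watered and 4.38 ± 3.36 CPM in ICC8261 drought (SD, n = 2 each). Only the step between the genotypes separates neighbouring groups of tpi3, and the treatment groups within a genotype do not differ beyond their spread. Both genes had all 4 agreed ICC8261 libraries above all 4 agreed ICC283 libraries, as did 6.63% of the genes tested.

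The size of the genotype difference was fitted with edgeR's quasi-likelihood model over all genes in the agreed libraries, as a log2 difference with its standard error (SE). Well-watered kpi1 was 2.22 ± 0.24 (SE) higher in ICC8261 on the log2 scale, a 4.67-fold difference, and 1.72% of the genes tested had a larger value. Under drought the kpi1 difference was 3.92 ± 0.25 (SE), 15.1-fold, with 1.46% of genes larger. For tpi3 the difference was 3.13 ± 0.69 (SE) well-watered, 8.73-fold, with 0.651% of genes larger, and 3.20 ± 0.66 (SE) under drought, 9.17-fold, with 2.57% of genes larger. The median log2 difference of all genes tested was -0.03 well-watered and 0.01 under drought. All of these differences kept their sign under both sets of labels for 12 libraries, but not their size. With the tables' labels kpi1 differed by 1.35 ± 0.44 (SE) well-watered and 3.62 ± 0.49 (SE) under drought, and tpi3 by 1.02 ± 0.78 (SE) and 2.34 ± 0.87 (SE). With the count-file labels kpi1 differed by 2.56 ± 0.65 (SE) and 2.29 ± 0.62 (SE), and tpi3 by 2.24 ± 0.93 (SE) and 1.14 ± 0.86 (SE). The smaller value stood each time in the treatment that held the ICC283 library with 10.8 CPM of kpi1. In the agreed libraries, leaving out ICC8261 drought 3, the library with 6.76 CPM of tpi3, took the tpi3 difference under drought to 2.07.

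The drought response of kpi1 differed in direction between the genotypes in the agreed libraries. In ICC8261 kpi1 was 1.12 ± 0.20 (SE) higher under drought on the log2 scale, a 2.17-fold difference, with 4.93% of the genes tested at a larger value. Both agreed ICC8261 drought libraries lay above both well-watered ones, as they did for 31% of the genes tested. In ICC283 kpi1 was 0.58 ± 0.30 (SE) lower, a log2 difference of -0.58 and 1.49-fold, with 72.1% of genes at a larger value. Both agreed ICC283 drought libraries lay below both well-watered ones, as they did for 36.8% of the genes tested, and the Poisson intervals of all 4 overlapped. The ICC283 value rests on single libraries: it was -0.18 ± 0.33 (SE) without well-watered 2 and -0.91 ± 0.31 (SE) without well-watered 1. The difference of these 2 effects, ICC8261 minus ICC283, was 1.70 ± 0.36 (SE), with 7.23% of genes larger and a median of 0.12 over all genes. Non-unique alignments, as a share of all lines that HTSeq counted, moved with drought in the same libraries, from 44.1 to 46.7% well-watered to 50.5 to 52.8% under drought in ICC8261 and from 48.1 to 50.6% to 53.4 to 53.5% in ICC283. How many reads of kpi1 or tpi3 were set aside in this way, or shared with near copies of either gene, was not measured.

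With 12 libraries the rise of kpi1 in ICC8261 stayed positive and its ICC283 value depended on the labels. With the tables' labels the 3 ICC8261 drought libraries (21.3, 26.4 and 26.9 CPM) lay above the 3 well-watered ones (11.6, 13.2 and 16.8 CPM), as for 21.7% of the genes tested, and the log2 difference was 0.85 ± 0.41 (SE). With the count-file labels the groups overlapped, at 16.8 to 26.9 CPM against 11.6 to 21.3 CPM, and the difference was 0.61 ± 0.59 (SE). In ICC283 the groups overlapped under both sets of labels. There the log2 difference was -1.43 ± 0.52 (SE) with the tables' labels and 0.88 ± 0.64 (SE) with the count-file labels, so its sign follows the place given to the library at 10.8 CPM. Without that library it was -0.37 with the tables' labels and -0.59 with the count-file labels. The difference of the drought effects was 2.27 ± 0.66 (SE) with the tables' labels and turned to -0.27 ± 0.86 (SE) with the count-file labels. Without the library it was 1.23 and 1.19.

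In the agreed libraries the fitted drought effects of tpi3 were smaller than their SE in both genotypes. Its log2 difference was 0.08 ± 0.87 (SE) in ICC283 and 0.15 ± 0.52 (SE) in ICC8261, and the difference between the genotypes was 0.07 ± 1.06 (SE). Larger values were found in 44%, 38.1% and 52.6% of the genes tested. The 2 agreed ICC8261 drought libraries, at 2.00 and 6.76 CPM, had Poisson intervals that did not overlap (1.21 to 3.13 and 5.31 to 8.48 CPM), and without ICC8261 drought 3 the ICC8261 value was -0.99. With 12 libraries the ICC283 value was -1.14 ± 0.91 (SE) under the tables' labels and 1.13 ± 0.94 (SE) under the count-file labels, again with the sign set by the library filed as drought 3. Without that library these values were 0.65 and -0.57.

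**Figure D2:**
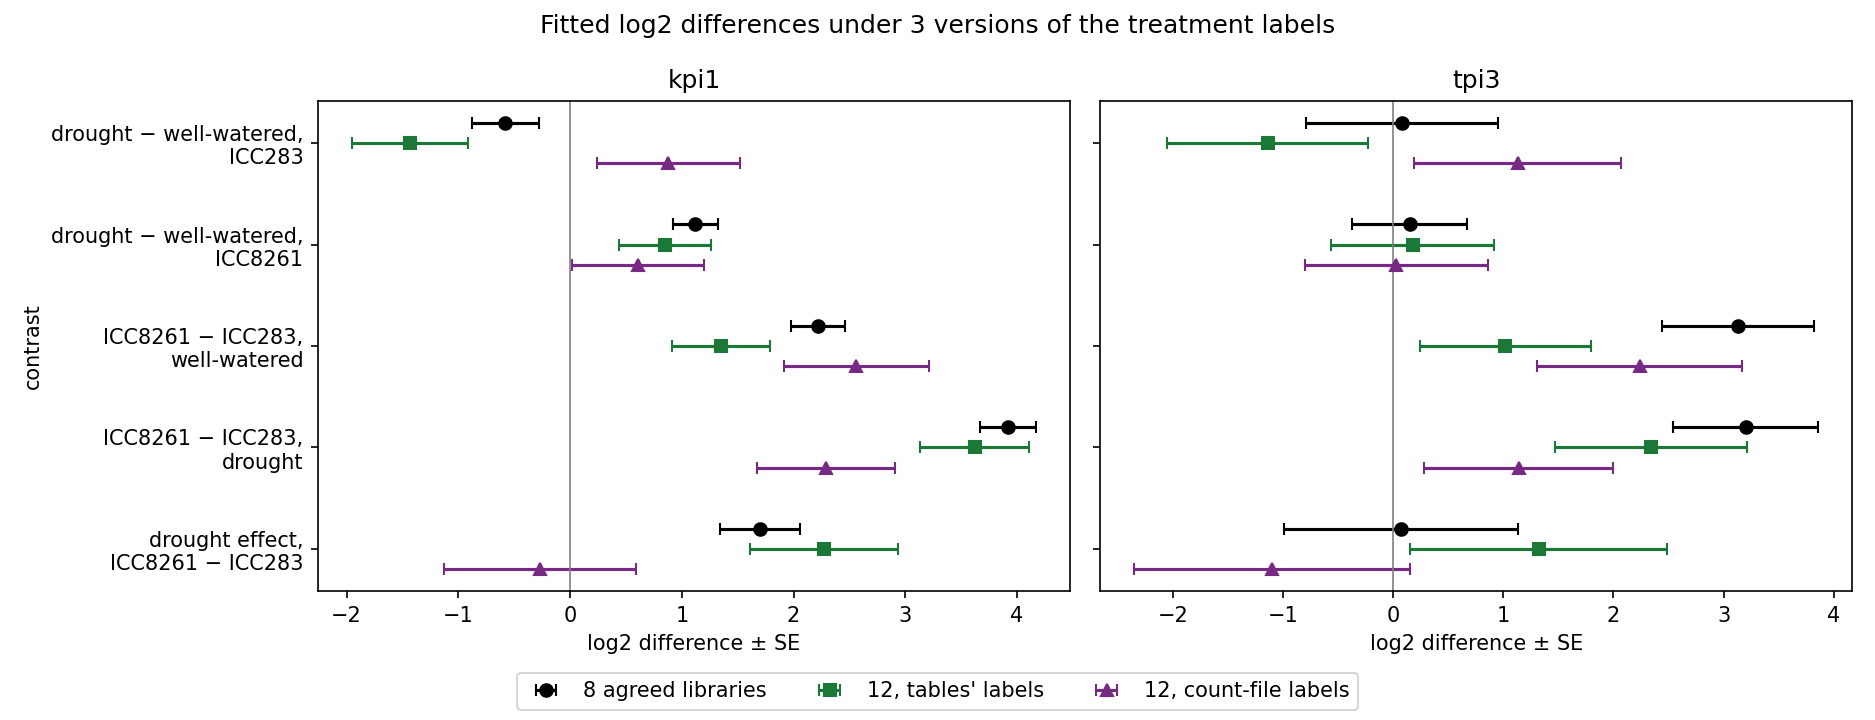
Fitted log2 differences of kpi1 (left) and tpi3 (right) with their SE, for 5 contrasts and 3 versions of the treatment labels. Circles are the 8 agreed libraries, squares all 12 with the tables' labels and triangles all 12 with the count-file labels. The genotype differences lie right of 0 in all versions, while the kpi1 drought effect in ICC283 runs from -1.43 to 0.88.

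The authors' deposited DESeq2 tables, which use the tables' labels within each genotype, list both genes. For kpi1 the authors' deposited table gives a log2 fold change of -1.18 (SE 0.535, adjusted p = 0.0884) in ICC283 and of 0.82 (SE 0.201, adjusted p = 0.000477) in ICC8261. For tpi3 the authors' deposited table gives -0.76 (SE 0.671, adjusted p = 0.438) in ICC283 and 0.15 (SE 0.424, adjusted p = 0.844) in ICC8261. Of the authors' deposited edgeR tables, that of ICC8261 lists kpi1 among 5215 genes, with a log2 fold change of 0.84 and a false discovery rate of 6.33e-05, and that of ICC283, with 4602 genes, does not. Neither of them lists tpi3. These values come from the libraries described above and are not independent of them. They may have been in view when the genes were chosen, so their p-values are no test of either gene here.

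The ICC283 library filed as drought 3 and listed in the tables as well-watered 3 was the highest of its genotype for both genes. Its kpi1 level was 3.30 times that of the next ICC283 library and 5.53 times the median of the other 5. For tpi3 the ratios were 3.05 and 6.83. Over the 18750 genes tested this library was the highest of the 6 in ICC283 for 23.7%, and it was at least 2 times the next highest for 373 genes, 1.99%. Its genotype was checked with 4 genes that were under 0.2 CPM in the other 5 ICC283 libraries and over 5 CPM in all 6 ICC8261 libraries. They stood at 0 to 0.0905 CPM in it and at 7.49 to 24.9 CPM in ICC8261, so for these genes the library has the ICC283 pattern of its label. On the second principal component (17.2% of the variance) other libraries stood apart, ICC283 well-watered 1 and 2, at 73.9 and 56.6 against at most 18.3 for the rest. Without well-watered 1 the well-watered genotype difference of kpi1 was 1.89, and without well-watered 2 it was 2.62.

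Whether kpi1 and tpi3 vary together within a genotype rests on 6 libraries each. Over the 6 ICC283 libraries the log2 CPM values of kpi1 and tpi3 had Pearson's r = 0.92 and Spearman's rho = 0.77, with the library filed as drought 3 the highest for both genes. Without the 2 libraries farthest from the median of kpi1, r was 0.83. Over the 6 ICC8261 libraries r was -0.08 and rho was -0.09, with r = 0.66 without the 2 farthest. These values are a description with no test, and both mix the treatments.

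The genes most like each inhibitor were taken by Pearson's r of log2 CPM over all 12 libraries, which needs no treatment label, among 16004 candidates with a mean of at least 2 CPM. These r values take in the gap between the genotypes and are given as a description. The genes were picked for high r over these same libraries, so r within a genotype, and a shared highest library, are in part set by that choice. For kpi1, 40 candidates (0.25%) passed r = 0.9, and the 95th percentile was 0.71. The 5 nearest were LOC101493048 (r = 0.98), LOC101496317 (0.98), LOC101496247 (0.97), LOC101496796 (0.96) and LOC101506058 (0.95). LOC101493048 ran from 2.30 to 11.6 CPM in ICC283 and from 14.999 to 25.1 CPM in ICC8261, nearly the ranges of kpi1, and its highest ICC283 library was again that filed as drought 3. For LOC101496317 r with kpi1 was 0.99 in ICC283 and 0.97 in ICC8261 (n = 6 each), although its level only ran from 80.2 to 159 CPM. It too was highest in ICC283 in the library filed as drought 3. Of the genes with a symbol of their own, the nearest was the UDP-glycosyltransferase gene UGT78G2 (r = 0.94, rank 10). Its r with kpi1 was 0.99 in ICC283 and -0.25 in ICC8261 (n = 6 each). In ICC283 its highest level, 48.6 CPM, was in the library filed as drought 3, as for kpi1, and r without that library was not computed. UGT91H8 and UGT85J2, with symbols of the same family, came far lower, at r = 0.81 (rank 257) and 0.72 (rank 739), the latter near the 95th percentile. Their r with kpi1 was 0.81 and 0.74 within ICC283 and -0.07 and -0.57 within ICC8261 (n = 6 each). In the ICC283 library filed as drought 3 they stood at 4.98 and 5.97 CPM, where the highest ICC283 levels were 4.98 and 6.29 CPM.

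For tpi3, 9 candidates (0.0562%) passed r = 0.9, with a 95th percentile of 0.70. The 5 nearest were LOC101493596 (r = 0.95), LOC101498647 (0.93), LOC101489083 (0.93), LOC101500079 (0.93) and LOC101490775 (0.92). For LOC101493596 r with tpi3 was 0.96 in ICC283 and 0.91 in ICC8261 (n = 6 each). As these genes were picked over the same libraries, such values are in part set by the choice and are no added support. LOC101490775 ran from 1.81 to 9.86 CPM in ICC283, with its highest level in the library filed as drought 3, and from 3.05 to 12.7 CPM in ICC8261, so that the genotypes overlapped. The nearest genes with a symbol were UGT78G2 (r = 0.84, rank 101), UGT91H8 (0.82, rank 146) and UGT73K2 (0.73, rank 625). The lists of 5 share no gene, and the inhibitors stood at rank 237 of the genes like kpi1 and rank 145 of those like tpi3.

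**Figure D3:**
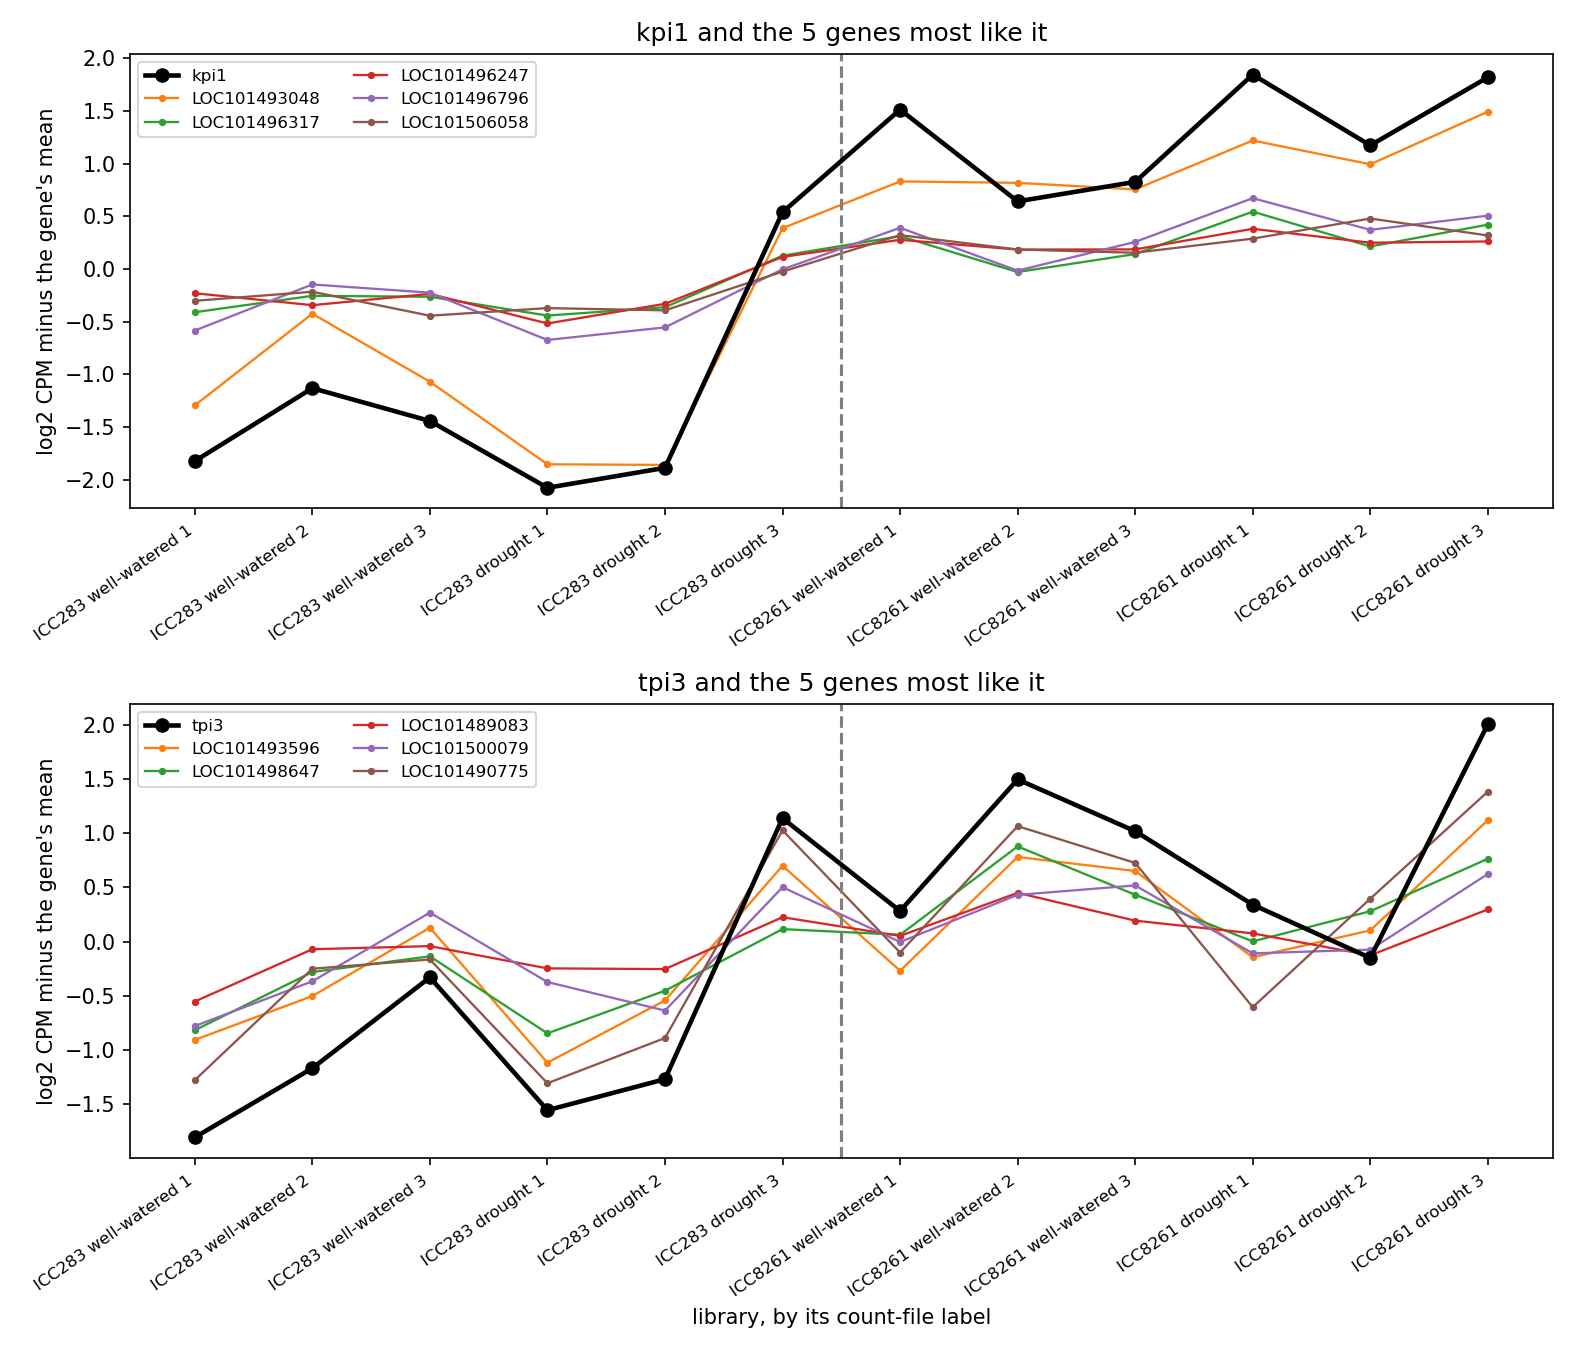
kpi1 (top) and tpi3 (bottom) with the 5 genes most like each, as log2 CPM minus the gene's mean, in the 12 libraries named by their count-file labels. The dashed line parts ICC283 from ICC8261, and lines only join the points of a gene. The sixth ICC283 library is the highest of its genotype for kpi1 and tpi3 and for all of the 10 genes beside them. The choice of these genes by likeness over the same libraries favours this. Over all genes tested this library was the highest of its genotype for 23.7%.

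The tested neighbours of both genes in the annotation had fitted genotype differences from -2.07 to 1.18, below those of the inhibitor genes. Of the 3 genes on each side of kpi1 and tpi3, 12 in all, 11 were in the count files and 8 had enough reads for the test. These were 2 of kpi1, both on the same side of it, and 6 of tpi3. Neither gene adjoining kpi1 was tested. The inhibitor genes were chosen with their values in view, so their standing above the neighbours is in part set by the choice. The kpi1 gene lies between genes with almost no reads in leaf, LOC101514103 with at most 8 reads in a library and LOC101514425 with at most 1. The next but one, LOC101496391, was measured at 9.96 ± 3.45 CPM in ICC283 and 10.02 ± 0.787 CPM in ICC8261 (SD, n = 6 each). On the side of tpi3, the adjoining gene LOC101503634 stood at 49.8 ± 4.78 CPM in ICC283 and 48.5 ± 3.19 CPM in ICC8261 (SD, n = 6 each). Its well-watered genotype difference was -0.11 ± 0.12 (SE; edgeR's quasi-likelihood test, adjusted p = 0.531) on the log2 scale. The adjoining LOC101502980 stood near 1 CPM, with a difference of -0.00 ± 0.56 (SE) well-watered. The largest difference of a neighbour in size was that of the pseudogene LOC101502882, the third from tpi3, which was -2.07 ± 0.73 (SE; edgeR's quasi-likelihood test, adjusted p = 0.063) well-watered, from at most 18 reads in a library, and near the size of the 2.22 of kpi1 with the opposite sign.

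By edgeR's quasi-likelihood test in the agreed libraries, adjusted over all genes, 2 of the 8 neighbours were higher in ICC8261 well-watered, where 26.6% of all genes tested were called in either direction. Under drought 0 of 8 were called by edgeR and 0 by DESeq2, with 1 at an unadjusted p under 0.05, against 18.9% of all genes called. The 2 genes were LOC101496391, with 0.80 ± 0.20 (SE, adjusted p = 0.0191), and LOC101502359, with 1.18 ± 0.15 (SE, adjusted p = 0.0012), both below the values of kpi1 and tpi3. The same 2 genes rose under drought in ICC283, by 1.01 ± 0.20 (SE, adjusted p = 0.00436) and 1.105 ± 0.15 (SE, adjusted p = 5.72e-04) on the log2 scale, where 38.2% of all genes were called. In the drought contrast of ICC8261 0 of 8 were called by edgeR and 0 by DESeq2, with 2 at an unadjusted p under 0.05, against 15.5% of all genes called. The difference of the drought effects was called for the same 2 genes, against 12.6% of all genes. It was -1.18 ± 0.28 (SE, adjusted p = 0.0273) for LOC101496391, a neighbour of kpi1, where kpi1 had 1.70, of the opposite sign. It was -1.44 ± 0.21 (SE, adjusted p = 0.00466) for LOC101502359, a neighbour of tpi3, where tpi3 had 0.07 ± 1.06 (SE). All the contrasts with calls contain the agreed ICC283 well-watered libraries, which stood apart on the second principal component. The calls of a gene in them are therefore not separate results. With the count-file labels none of these calls held, and with the tables' labels the drought rise in ICC283 was still called for both (0.78 and 0.71) while the other calls were lost, at -0.94 and 0.52 for LOC101496391 and -0.95 and 0.70 for LOC101502359 (difference, well-watered genotype difference). Leaving out the ICC283 library filed as drought 3 was an alternative chosen after seeing the data. With the tables' labels it kept all of these calls, at -1.24 and 0.82, and at -1.37 and 1.12. With the count-file labels it kept none of them, at -0.53 and 0.23, and at -0.79 and 0.58. For LOC101496391 the difference also lost its call in DESeq2 (-1.22) and without 6 of the 8 libraries in turn (-1.24 to -1.01), and the well-watered genotype difference in DESeq2 (0.84) and without 3 libraries in turn, ICC283 well-watered 2 and ICC8261 well-watered 2 and 3 (0.63 to 0.87).

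**Figure D4:**
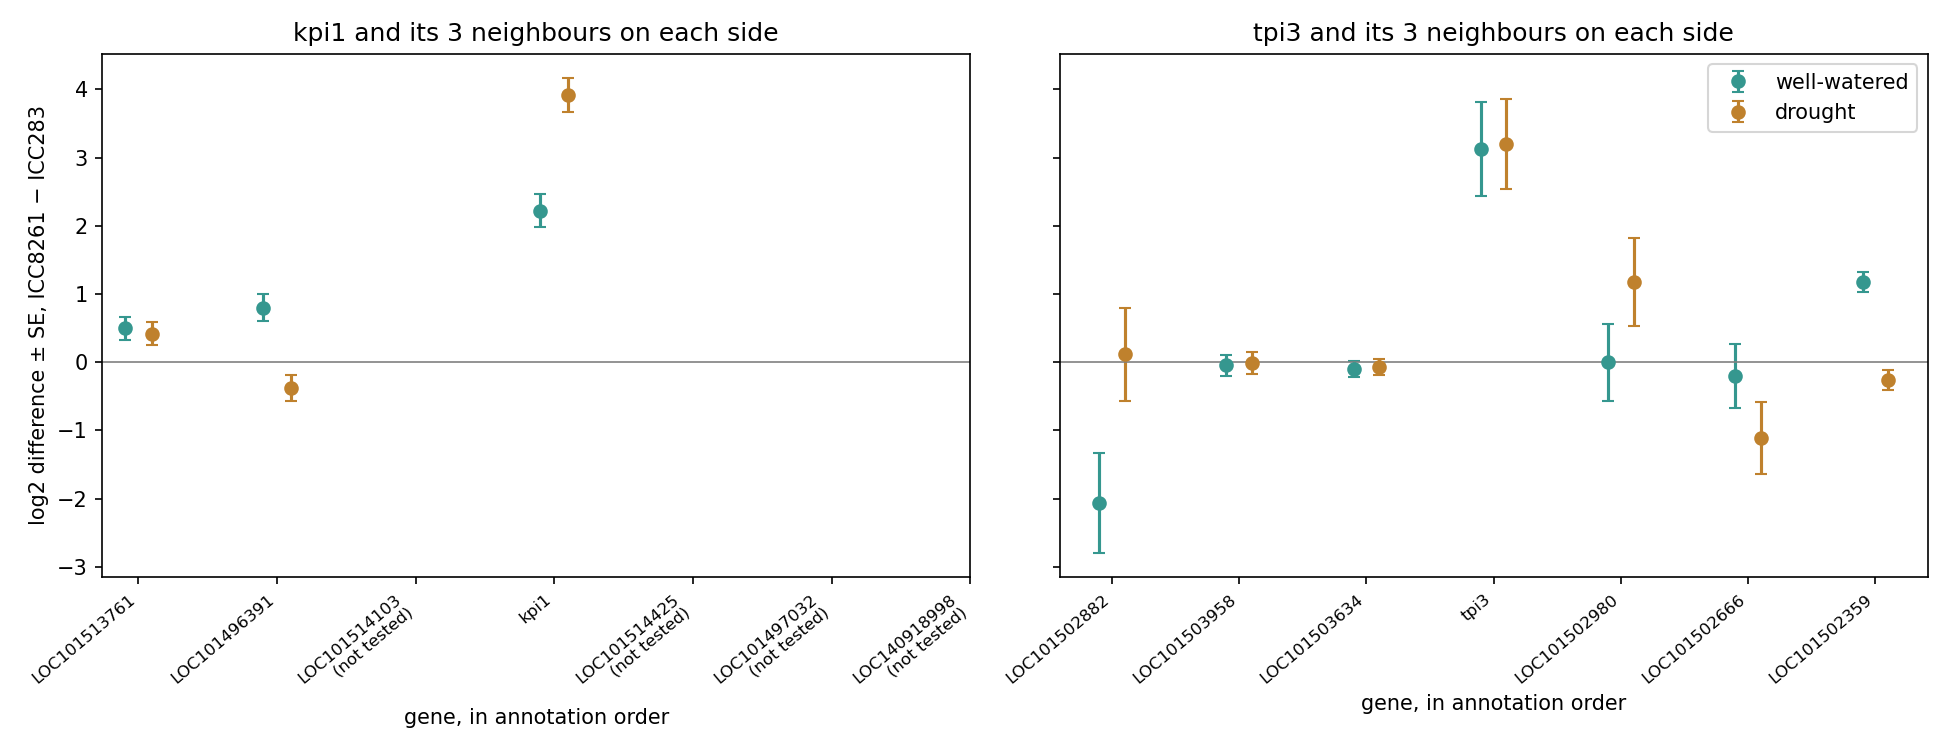
Log2 difference between the genotypes, ICC8261 minus ICC283, with its SE in the 8 agreed libraries, for kpi1 (left) and tpi3 (right) and the 3 annotated genes on each side of each, in annotation order. Genes without points had too few reads to be tested or were not used here. The inhibitor genes stand at 2.22 and 3.92 (kpi1) and at 3.13 and 3.20 (tpi3), above every tested neighbour, of which kpi1 had 2 and tpi3 had 6.

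A few other genes with symbols of trypsin inhibitors or defence proteins, listed after the gene names had been seen, were measured beside them. TPI1, a further trypsin inhibitor symbol, had 7 reads in all, in 3 libraries, and was not tested. CHITINASE, whose product breaks down chitin of fungal walls, stood at 41.9 ± 16.9 CPM in ICC283 and 49.3 ± 26.4 CPM in ICC8261 (SD, n = 6 each). DRR49a, whose symbol is that of a pea disease resistance response protein, stood at 85.3 ± 66.4 CPM and 109 ± 54.0 CPM (SD, n = 6 each). Of the 3 of these genes tested, 1 was called in the 5 contrasts: DRR49a, LOC101499736, fell under drought in ICC283, with a log2 difference of -1.83 ± 0.54 (SE; edgeR's quasi-likelihood test, adjusted p = 0.0418), in the contrast where 38.2% of all genes tested were called. Its adjusted p lost the threshold without ICC283 well-watered 1, where the difference was -1.20, without 4 of the other libraries in turn, without the filter on low counts, at -1.82, and with the count-file labels, where it was -0.98. AFP-CA stood at 2.15 ± 1.14 CPM in ICC283 and 0.898 ± 0.699 CPM in ICC8261 (SD, n = 6 each). Its genotype difference under drought of -2.66 ± 0.83 (SE; edgeR's quasi-likelihood test, adjusted p = 0.0525) did not pass but lay next to the threshold. It passed with the tables' labels, at -2.91, and without the filter on low counts, at -2.66. It did not pass in DESeq2, at -2.69, or with the count-file labels, at -1.24.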

How the data were processed

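Leaf RNA of 12 chickpea libraries was sequenced as paired reads, and samples were grouped by their titles and treatment entries. The authors deposited whole-number counts per gene for each library. The submitters' processing notes name edgeR, DESeq2 and HTSeq beside Cufflinks 2.0.2, TopHat2 2.1.1 and Trimmomatic. The build, the annotation and strandedness were not given in the sources used here. HTSeq summary lines stayed out of library sizes, and alignments that were not unique were 44.1 to 53.5% of all counted lines, those on no feature 16.6 to 21.4%. Per the file headers, the authors' deposited comparison tables hold DESeq2 base means and normalized counts per library (a signal), log2 fold changes, their SE, a Wald score, p-values and adjusted p-values, with edgeR tables of listed genes. Each normalized column gave whole multiples of 1 step (tolerance 0.02) that equalled 1 count file, at 27234 features in ICC283 and 27233 in ICC8261, which exposed the 4 libraries of conflicting treatment.

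Counts were fitted with edgeR 4.0.16 in R 4.3.3: filterByExpr (minimum count 10, minimum total 15), TMM, 1 model with 4 group means over the 8 agreed libraries, and the robust two-sided quasi-likelihood test with Benjamini-Hochberg adjustment over 18750 genes at 0.05. The SE is the absolute log2 difference over the square root of F. The fit was also run on simulated counts with the same spread setting for every gene, unlike these data, and no result here rests on it. Alternatives were both sets of labels for 12 libraries, upper-quartile scaling, DESeq2 1.42.0, no filter, a replicate block and each library left out. Poisson intervals (95%) cover counting error only. Likeness used log2 CPM with a prior count of 2. The genes named are kpi1 and tpi3, the 5 genes and the 3 with symbols most like each, the 3 genes on each side, and 4 genes of inhibitor or defence symbols. The name table, of assembly Cicar.CDCFrontier_v2.0, matched 24445 of 27234 features (89.8%) and served for names and gene order only. Lists planned from protein sequence (Kunitz relatives and other inhibitor and protease families) are not analysed here, and no feature matched the planned jasmonate symbols. The 2 genes, the lists and the 8-library fit were chosen with earlier results of these data known.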

Additional observations from a re-analysis of the deposited data

Results flagged for a closer look

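The difference between the drought effects of the 2 genotypes is brought up for kpi1 by a rule for effects that differ between groups. The rule used the adjusted p of this contrast in the 8 agreed libraries. The difference was 1.70 ± 0.36 (SE) on the log2 scale, ICC8261 minus ICC283. The effects were 1.12 ± 0.20 (SE) in ICC8261 and -0.58 ± 0.30 (SE) in ICC283, and the latter was -0.18 without well-watered 2. Since kpi1 was chosen with these values in view, that p is no test of the gene, and the difference is a description. The difference was -0.27 with the count-file labels on all 12 libraries.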

How the results depend on the processing

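Across 16 settings besides the values reported, upper-quartile scaling, DESeq2 and no filter moved no value of kpi1 or tpi3 by more than the spread between replicates. In the order drought in ICC283, drought in ICC8261, their difference, genotype well-watered and genotype under drought, log2 values of kpi1 were 0.88, 0.61, -0.27 (a turn of sign), 2.56 and 2.29 with the count-file labels and -1.43, 0.85, 2.27, 1.35 and 3.62 with the tables' labels. Those of tpi3 that moved were 1.13 (drought in ICC283), -1.10, 2.24 and 1.14 against -1.14, 1.32, 1.02 and 2.34.

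Without the ICC283 library filed as drought 3, an alternative chosen after seeing the data, the values that moved with the tables' labels were 1.23 and 3.61 for kpi1 (difference, genotype under drought) and 2.33 for tpi3 (genotype under drought). With the count-file labels they were 0.60, 1.19 and 2.54 for kpi1 (drought in ICC8261, difference, genotype well-watered) and 2.21 for tpi3 (genotype well-watered). The cause was not tested.

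Leaving out each agreed library in turn gave, in the same order, -0.91 to -0.18, 1.02 to 1.19, 1.30 to 2.03, 1.89 to 2.62 and 3.82 to 4.03 for kpi1. For tpi3 it gave -0.31 to 0.57, -0.99 to 0.77, -1.10 to 0.69, 2.73 to 3.61 and 2.07 to 3.81. Counts of genes called ran from 3961 to 7539, 455 to 3294, 540 to 2307, 1434 to 5594 and 862 to 3793, against 7167, 2898, 2355, 4992 and 3551 with all 8; a lone library was assumed to vary like the other groups.

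With the count-file labels edgeR called 0, 0, 0, 98 and 113 genes, with 1841, 386 and 634 genes at an unadjusted p under 0.05 in the first 3 contrasts, where DESeq2 called 46, 0 and 0. Without the ICC283 library edgeR called 0, 0, 0, 195 and 789, with 4172, 502 and 1937 genes unadjusted and 1507, 0 and 163 by DESeq2. With the tables' labels the counts that moved were 479, 2359 and 1913 (difference, genotype well-watered, genotype under drought), and without the library 4833 (drought in ICC8261).

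A replicate block gave -0.58, 1.23, 1.81, 2.14 and 3.95 for kpi1 and 0.05, 0.64, 0.59, 2.59 and 3.18 for tpi3, and moved the counts of genes called to 1800 (drought in ICC8261) and 3182 (genotype well-watered). Whether the replicate numbers pair the samples is not settled. Within a genotype, deviations of same-numbered libraries correlated at -0.61 to 0.74 with the count-file labels. The highest were 0.71 and 0.74 for numbers 1 and 2 of ICC8261, each of which holds a library of conflicting treatment. With the tables' labels the correlations were -0.11 to 0.30, and 0.17 and 0.07 for numbers 1 and 2 of ICC8261. The planned counts of Kunitz relatives were not run, as no protein sequences were used here. Depth limits tpi3 in ICC283, with 3 to 6 reads in the agreed libraries.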
